A study of Mus musculus with 18 samples.

Results

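The dual-specificity phosphatase genes Dusp1, Dusp2, Dusp3, Dusp4, Dusp5, Dusp6, Dusp8, Dusp10, Dusp14 and Dusp16 were followed in RNA-Seq count data of mouse bone marrow-derived macrophages (BMDMs). Earlier results of these data were known when the 10 genes were chosen. They were chosen by name, as phosphatases that act on mitogen-activated protein kinases (MAPKs), from the 22852 genes of the count files. Of these, 11305 genes passed the expression filter, and 9 of the 10 Dusp genes were among them, Dusp14 being the exception. The data hold 3 samples for each of 6 groups, 18 in all, and the labels number them 1 to 3 in every group. All BMDMs were grown for 7 days from the bone marrow of female C57BL/6 mice in medium with 20% L929 conditioned medium. Unstimulated BMDMs received neither LPS nor drug. LPS-primed BMDMs received LPS at 100 ng/ml for 24 h. LPS-tolerant BMDMs were primed in the same way, after which the medium was replaced by fresh medium with LPS at 10 ng/ml for 3 h. LPS-primed and LPS-tolerant BMDMs were also prepared with 25 µM carboplatin, a platinum drug that binds DNA, added 1 h before priming. The last group, called LPS-stimulated here, had a single dose of LPS at 10 ng/ml. That dose lasted 3 h according to the scheme of the study's cytokine assay. LPS-stimulated and LPS-primed BMDMs differed in both the dose and the time of LPS, and these cannot be told apart. LPS-tolerant and LPS-primed BMDMs thus differed by the later LPS, the change of medium and 3 h of culture, and these cannot be told apart. The study names no carboplatin in the fresh medium, so between the carboplatin groups removal of the drug may be a further difference.

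MAPKs relay the signal of the LPS receptor to transcription factors and to proteins that control mRNA stability. They are switched on when a kinase places phosphate on a threonine and a tyrosine of their activation loop, and dual-specificity phosphatases remove both phosphates. Several of these phosphatases are themselves made in response to MAPK signals, which gives a negative feedback. In macrophages the phosphatase encoded by Dusp1 is known to limit cytokine production after LPS.

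The members differ in where they act and on which kinase. Dusp1, Dusp2, Dusp4 and Dusp5 encode nuclear enzymes, of which the Dusp5 product acts on ERK, while the Dusp1 product prefers p38 and JNK. Dusp6 encodes a cytoplasmic phosphatase of ERK. Dusp8, Dusp10 and Dusp16 encode phosphatases of JNK and p38. Dusp3 and Dusp14 encode small phosphatases that lack the MAPK-binding domain of the others.

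Positions are those of GENCODE vM39 on GRCm39. Dusp1 lies on chromosome 17 (26724564 to 26781102, minus strand), Dusp2 on chromosome 2 (127177957 to 127180296, plus strand), Dusp4 on chromosome 8 (35274442 to 35287048, plus strand) and Dusp5 on chromosome 19 (53517532 to 53530862, plus strand). Dusp6 lies on chromosome 10 (99086564 to 99103361, plus strand) and Dusp16 on chromosome 6 (134692431 to 134784241, minus strand). Dusp8 is on chromosome 7 (141633226 to 141649580, minus strand), Dusp10 on chromosome 1 (183745499 to 183807842, plus strand), Dusp3 on chromosome 11 (101861969 to 101877839, minus strand) and Dusp14 on the same chromosome (83938521 to 83960087, minus strand). No gene on either strand was annotated over the exons of the canonical transcripts of Dusp1, Dusp4 and Dusp14. Opposite-strand genes were annotated over exons of the other members, for example Cfap97d1 for Dusp3 and Gm34921 for Dusp6. The strand setting of the authors' counting is not given in the sources used here, so for these members reads of the opposite strand may be included.

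The stretches before the start sites were searched for a few binding motifs, since several members rose after LPS. RefSeq promoters (GRCm38.p6, 250 bases before the start to 50 after it) matched 9 members, all but Dusp4, and each of the 9 sequences was found once on its chromosome of GRCm39. The motifs searched on both strands were the cyclic AMP response element TGACGTCA and its shorter form TGACG, which is contained in it, the AP-1 motif TGANTCA, the GC box GGGCGG, the TATA box TATAAA, the E-box CACGTG, and, by name, the NF-kB motif and the serum response element. The serum response element was found in Dusp5 alone among the 9 members and in 1.63% of all 32851 promoters. The element TGACGTCA was found in Dusp1 and Dusp8 and in 1.79% of all promoters. The 30 bases around each of these matches are shown 5′ to 3′ on the strand of the gene, with the match in capitals, because no other searched motif was as rare among promoters.
Dusp1, chr17:26727571-26727600, minus strand, match starting 143 bases before the start: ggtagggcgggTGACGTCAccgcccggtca
Dusp5, chr19:53517489-53517518, plus strand, 2 adjoining serum response elements, the first starting 82 bases before the start: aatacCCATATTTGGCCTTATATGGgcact
Dusp8, chr7:141649110-141649139, minus strand, match starting 107 bases before the start: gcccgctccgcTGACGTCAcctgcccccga
Dusp8, chr7:141649066-141649095, minus strand, match starting 63 bases before the start: ttggctgcaggTGACGTCAggggctttttc
The GC box was present in 8 of the 9 members and in 35.7% of all promoters, and TGACG in 5 members and 20.8% of promoters. The E-box was found in Dusp1 and Dusp2 and in 7.15% of promoters. The AP-1, NF-kB and TATA motifs were found in none of the 9 windows, and in 7.81%, 8.46% and 13.6% of all promoters. The starts used here are those of RefSeq and can differ from those of GENCODE. All 9 stretches of 250 bases overlapped an annotated exon of their gene. That of Dusp10 (183766328 to 183766577) lay downstream of the start of its canonical GENCODE transcript at 183765870. These matches describe the letters of the windows only.

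Per sample, 6869667 to 14708099 reads fell on genes (median 8986463). Levels are given in CPM (counts of a gene scaled to a common library total) on the library sizes scaled by edgeR's TMM method. All 8 macrophage markers were detected in every sample. Markers of T cells, mast cells, dendritic cells and erythroid cells had at most 7 reads in any sample. The neutrophil list was carried by S100a8 with up to 414 reads, Ly6g and Mpo being at 0. Ighm, a B cell gene, reached 1697 reads in unstimulated BMDMs, while Cd79b reached 17 reads there and Cd79a and Ms4a1 had at most 2 reads anywhere. Of the fibroblast markers, the collagen genes had at most 6 reads and Dcn at most 71. Summed over their lists, B cell markers reached 28.7 to 168 CPM in unstimulated and 7.69 to 29.1 CPM in LPS-stimulated samples and at most 1.36 CPM elsewhere. Fibroblast markers summed to 0.0881 to 0.684 CPM in unstimulated and 1.97 to 9.07 CPM in all other samples. The neutrophil list summed to 0.879 to 1.67 CPM in unstimulated and 4.39 to 58.3 CPM in all other samples. The part of these lists in the results was not tested. In these bulk samples, fewer cells of a type and less RNA per cell cannot be told apart. Same-numbered samples deviated together from their group means, so fits with the replicate number as a block are given where they change a call. The comparisons share groups, so their values are not independent of each other.

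**Figure D1:**
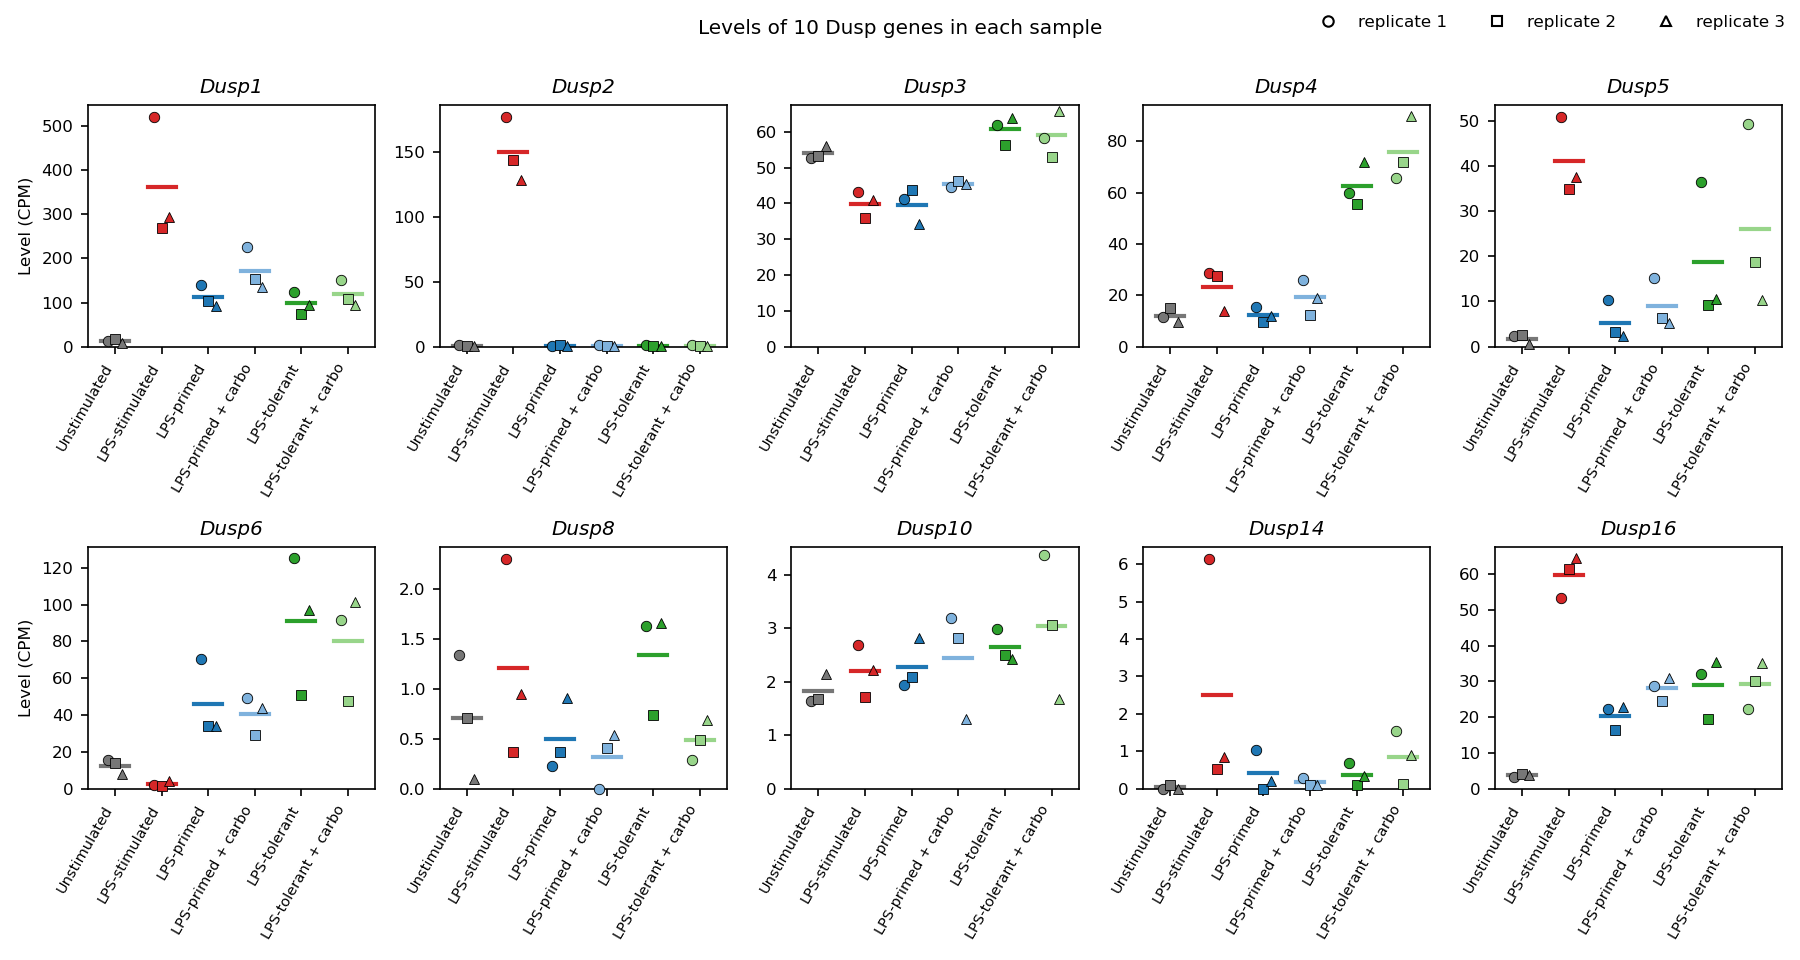
Level in CPM (vertical axis, linear, starting at 0) of each of the 10 Dusp genes in the 18 samples, by group. Symbols mark the replicate number and horizontal bars the mean of 3 samples; Dusp2 reached 128 to 177 CPM in LPS-stimulated BMDMs and at most 1.16 CPM elsewhere.

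Dusp1, the gene of the phosphatase that prefers p38 and JNK, had the highest level per kilobase of transcript of all members in LPS-stimulated BMDMs, and it stayed well above the unstimulated level after priming and in tolerance. Dusp1 levels were 13.0, 17.1 and 7.71 CPM in unstimulated BMDMs, 521, 269 and 293 CPM after the single dose, and 140, 104 and 92.9 CPM after priming. In LPS-tolerant BMDMs they were 124, 74.7 and 95.01 CPM. The unstimulated samples lay below all others and the LPS-stimulated samples above all others, while LPS-primed and LPS-tolerant samples overlapped. The log2FC against unstimulated BMDMs was 4.83 after the single dose (95% CI 4.07 to 5.60, adjusted p = 1.4e-08, edgeR quasi-likelihood test) and 3.15 after priming (95% CI 2.44 to 3.86, adjusted p = 2.4e-06), with Dusp1 higher in 3 of 3 same-numbered pairs each time. LPS-tolerant BMDMs had a log2FC of -1.88 against LPS-stimulated BMDMs (95% CI -2.54 to -1.22, adjusted p = 0.00017). Against LPS-primed BMDMs the log2FC was -0.20 (95% CI -0.84 to 0.45, adjusted p = 0.78), and 1 of 3 pairs was higher.

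Dusp2, whose product is a nuclear phosphatase known from activated blood cells, had the largest absolute log2FC of the tested members after the single dose. Dusp2 levels were 177, 144 and 128 CPM in LPS-stimulated BMDMs, from 1213 to 1936 reads. Elsewhere each sample had 2 to 9 reads, and the 3 LPS-tolerant samples were at 1.09, 0.649 and 0.774 CPM. The LPS-stimulated samples thus stood apart from the 15 others, and the other groups overlapped with each other. Because Dusp2 passed the expression filter mainly through the samples in which it was high, its being called there is not counted as support for the list. The log2FC was 7.78 against unstimulated BMDMs (95% CI 6.75 to 8.81, 219-fold, adjusted p = 1.8e-09) and -7.50 for LPS-tolerant against LPS-stimulated BMDMs (95% CI -8.52 to -6.48, adjusted p = 6.9e-09). With 2 to 9 reads per sample in the other groups, differences among them were not detectable at this depth.

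Dusp4, which encodes a nuclear phosphatase of ERK, p38 and JNK, was highest in the groups that met LPS again after priming. Dusp4 levels were 59.99, 55.7 and 71.8 CPM in LPS-tolerant BMDMs and 15.5, 9.67 and 11.8 CPM in LPS-primed BMDMs. They were 28.7, 27.5 and 13.8 CPM in LPS-stimulated BMDMs and 11.6, 14.9 and 9.57 CPM in unstimulated BMDMs. All 3 LPS-tolerant samples lay above every sample of the other 3 groups, and the LPS-primed and unstimulated samples overlapped. LPS-tolerant BMDMs exceeded LPS-primed BMDMs by a log2FC of 2.34 (95% CI 1.71 to 2.98, 5.07-fold, adjusted p = 0.00020), at rank 30 of all genes by p in that comparison. They exceeded LPS-stimulated BMDMs by 1.42 (95% CI 0.81 to 2.03, adjusted p = 0.0010). The single dose raised Dusp4 by 0.95 (95% CI 0.33 to 1.58, adjusted p = 0.012), which was 0.62 with an adjusted p of 0.082 when library size alone was used for scaling, and 0.82 with an adjusted p of 0.054 without LPS-stimulated replicate 2. After priming the log2FC was 0.03 (95% CI -0.60 to 0.66, adjusted p = 0.95).

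Dusp5, the gene of a nuclear ERK phosphatase, rose after the single dose and varied widely between replicates. Dusp5 levels were 50.9, 34.8 and 37.6 CPM in LPS-stimulated BMDMs and 2.26, 2.64 and 0.488 CPM in unstimulated BMDMs. They were 10.2, 3.30 and 2.32 CPM in LPS-primed and 36.5, 9.28 and 10.6 CPM in LPS-tolerant BMDMs. Replicate 1 was far above the other 2 replicates in both of these groups, and the LPS-tolerant group overlapped with the LPS-primed and the LPS-stimulated group. The log2FC after the single dose was 4.50 (95% CI 2.86 to 6.13, adjusted p = 0.00013). The other comparisons were not called without a block: 1.54 after priming (adjusted p = 0.17), 1.82 for LPS-tolerant against LPS-primed (adjusted p = 0.13) and -1.14 for LPS-tolerant against LPS-stimulated BMDMs (adjusted p = 0.19). With the replicate number as a block these were 1.39 (adjusted p = 0.017), 1.81 (adjusted p = 0.0020) and -1.42 (adjusted p = 0.0012), and all 3 passed the threshold. Leaving out the high replicate 1 of a group moved these values in fits without a block. Without LPS-primed replicate 1, the change after priming was 0.63 (adjusted p = 0.65) and that of LPS-tolerant against LPS-primed BMDMs 2.73 (adjusted p = 0.059). Without LPS-tolerant replicate 1, the latter was 0.91 (adjusted p = 0.52) and that against LPS-stimulated BMDMs -2.04 (adjusted p = 0.035).

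Dusp6, which encodes a cytoplasmic ERK phosphatase, fell after the single dose but rose after priming. Dusp6 levels were 15.7, 13.7 and 7.81 CPM in unstimulated BMDMs and 1.92, 1.56 and 4.03 CPM in LPS-stimulated BMDMs. They were 70.4, 33.8 and 34.1 CPM in LPS-primed and 125, 50.6 and 97.1 CPM in LPS-tolerant BMDMs. The LPS-stimulated samples lay below all others, and the LPS-primed and LPS-tolerant samples lay above all unstimulated samples but overlapped with each other. The log2FC against unstimulated BMDMs was -2.32 after the single dose (95% CI -3.33 to -1.32, adjusted p = 0.00067) and 1.89 after priming (95% CI 1.01 to 2.77, adjusted p = 0.0026). LPS-tolerant exceeded LPS-stimulated BMDMs by 5.19 (95% CI 4.14 to 6.24, 36.6-fold, adjusted p = 6.2e-07). LPS-tolerant BMDMs had 1.497 to 2.85 times the level of LPS-primed BMDMs in the 3 pairs, a log2FC of 0.98 (adjusted p = 0.16) that became 0.96 (adjusted p = 0.019) with the replicate block.

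Dusp16, whose product acts on JNK and p38, followed a course similar to that of Dusp1. Dusp16 levels were 3.29, 3.96 and 3.81 CPM in unstimulated BMDMs, 53.2, 61.5 and 64.5 CPM in LPS-stimulated BMDMs, 22.2, 16.3 and 22.8 CPM in LPS-primed BMDMs and 32.0, 19.4 and 35.4 CPM in LPS-tolerant BMDMs. The unstimulated samples were the lowest and the LPS-stimulated samples the highest, while LPS-primed and LPS-tolerant samples overlapped. The log2FC against unstimulated BMDMs was 4.01 after the single dose (95% CI 3.48 to 4.55, adjusted p = 1.9e-09) and 2.46 after priming (95% CI 1.95 to 2.98, adjusted p = 1.1e-06). LPS-tolerant BMDMs had a log2FC of -1.05 against LPS-stimulated (95% CI -1.51 to -0.59, adjusted p = 0.0012) and of 0.50 against LPS-primed BMDMs (adjusted p = 0.20).

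The remaining members of the JNK and p38 group had low levels. Dusp10 ranged from 1.30 to 4.37 CPM over the 18 samples, with 12 to 31 reads, and Dusp8 had 0 to 18 reads. Neighbouring groups overlapped throughout the order of Dusp8 and of Dusp10, and neither gene was called in any comparison. The log2FC of Dusp10 after the single dose was 0.26 (95% CI -0.59 to 1.11), and that of Dusp8 was 0.70 (95% CI -0.99 to 2.38). Dusp8 passed the expression filter through 4 samples only, and such widths leave sizeable changes undetectable at this depth.

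The small phosphatases differed in level. Dusp3 was expressed in all groups within a narrow range, with 52.8, 53.2 and 56.1 CPM in unstimulated, 43.1, 35.8 and 40.9 CPM in LPS-stimulated, 41.2, 43.7 and 34.2 CPM in LPS-primed and 61.9, 56.2 and 63.8 CPM in LPS-tolerant BMDMs. All LPS-stimulated and LPS-primed samples lay below all unstimulated and LPS-tolerant samples. The log2FC was -0.44 after the single dose (adjusted p = 0.011), -0.45 after priming (adjusted p = 0.019), 0.60 for LPS-tolerant against LPS-stimulated (adjusted p = 0.0019) and 0.61 against LPS-primed BMDMs (adjusted p = 0.010). Fits of only the 6 samples compared lost 3 of these calls, with adjusted p values of 0.10 after the single dose, 0.092 after priming and 0.067 for LPS-tolerant against LPS-primed BMDMs. The change after priming also missed the threshold without unstimulated replicate 2 (adjusted p = 0.051), without unstimulated replicate 3 (adjusted p = 0.071) and without the expression filter (adjusted p = 0.058). Without LPS-primed replicate 3, it was -0.35 (adjusted p = 0.11) and that of LPS-tolerant against LPS-primed BMDMs 0.52 (adjusted p = 0.069), and the latter was 0.57 (adjusted p = 0.053) without LPS-tolerant replicate 3. Without LPS-stimulated replicate 2, the change after the single dose was -0.36 (adjusted p = 0.057).

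Dusp14 was close to the limit of detection and was not tested. It had 48, 7 and 8 reads in LPS-stimulated, 0, 1 and 0 in unstimulated, 9, 0 and 2 in LPS-primed and 5, 1 and 3 in LPS-tolerant BMDMs. The LPS-stimulated samples overlapped with the LPS-primed samples, and 1 LPS-stimulated sample held most of the reads.

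**Figure D2:**
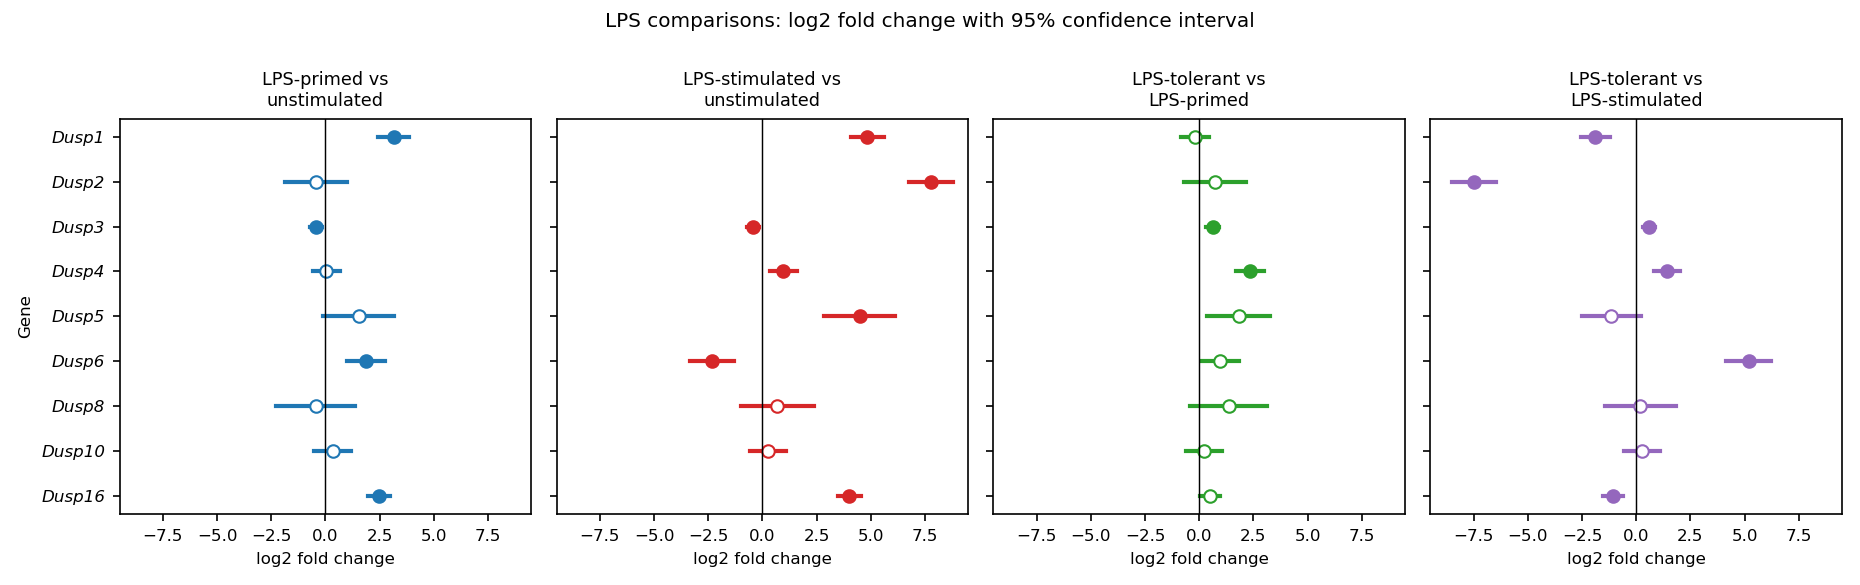
Log2 fold change (horizontal axis) of the 9 tested Dusp genes in 4 LPS comparisons, with 95% confidence intervals as lines. Filled points passed an adjusted p of 0.05 and open points did not; Dusp6 lies at -2.32 after the single dose and at 1.89 after priming, and Dusp4 and Dusp3 are the filled points for LPS-tolerant against LPS-primed BMDMs.

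The counts over the list are descriptions, since Dusp2 and Dusp8 passed the filter through few samples. Dusp2 is included among the members called after the single dose and between LPS-tolerant and LPS-stimulated BMDMs, so these counts are no support for the list. Of the 10 genes, 7 of the 9 tested members were called after the single dose, 5 higher and 2 lower, where 51.2% of all tested genes were called (24.3% higher, 26.9% lower). After priming 4 were called (Dusp1, Dusp6 and Dusp16 higher, Dusp3 lower), where 25.2% of all genes were (12.1% higher, 13.1% lower). Between LPS-tolerant and LPS-stimulated BMDMs 6 were called, 3 in each direction (34.5% of all genes, 16.2% higher and 18.3% lower). Between LPS-tolerant and LPS-primed BMDMs 2 were called, both higher (6.31% of all genes, 3.6% higher). With the replicate block 4 were called, Dusp5 and Dusp6 being added, where that fit called 2034 of all 11305 genes. The median log2FC of the tested members was 0.33 after priming, 0.95 after the single dose, 0.20 against LPS-stimulated and 0.73 against LPS-primed BMDMs, beside medians of all genes of -0.02, -0.09, 0.00 and -0.01.

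The response to LPS at 10 ng/ml in primed cells was then set against the response in naive cells, as the difference (LPS-tolerant minus LPS-primed) minus (LPS-stimulated minus unstimulated). Of the tested members 6 differed, 3 with a negative and 3 with a positive difference, where 23.8% of all genes were called (10.5% positive, 13.3% negative). This count includes Dusp2 and is a description only. The difference was -7.05 for Dusp2 (95% CI -9.10 to -5.00, adjusted p = 4.3e-05; -5.91 without LPS-primed replicate 2), -5.03 for Dusp1 (95% CI -6.00 to -4.06, adjusted p = 4.8e-07) and -3.51 for Dusp16 (95% CI -4.21 to -2.82, adjusted p = 6.9e-07). Dusp1 and Dusp16 were already raised in LPS-primed BMDMs, and their levels after the later LPS overlapped with those. The difference was 3.30 for Dusp6 (95% CI 1.99 to 4.62, adjusted p = 0.00084), 1.39 for Dusp4 (95% CI 0.51 to 2.26, adjusted p = 0.021) and 1.05 for Dusp3 (95% CI 0.65 to 1.45, adjusted p = 0.00053). Dusp6 and Dusp3 were lower after LPS in naive cells, at -2.32 and -0.44, and were at 0.98 and 0.61 in primed cells, of which that of Dusp3 was called, and that of Dusp6 with the replicate block only. The Dusp4 difference was 1.19 (adjusted p = 0.065) without unstimulated replicate 2, 1.24 (adjusted p = 0.057) without LPS-primed replicate 2 and 1.27 (adjusted p = 0.053) without LPS-tolerant replicate 3. For Dusp5 it was -2.68 (95% CI -4.80 to -0.55, adjusted p = 0.064), which was -2.81 (adjusted p = 0.00046) with the replicate block. It also passed without LPS-tolerant replicate 1 (-3.59, adjusted p = 0.014), without LPS-primed replicate 3 (-3.05, adjusted p = 0.046) and without the expression filter (-2.69, adjusted p = 0.042), but it was -1.77 (adjusted p = 0.25) without LPS-primed replicate 1.

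The make-up of the Dusp transcript pool was compared per length, as CPM divided by the length in kilobases of the canonical transcript. The summed level of the 10 genes was 30.4 ± 4.74 CPM per kb in unstimulated BMDMs (mean ± SD, n = 3), 316 ± 89.2 in LPS-stimulated, 93.7 ± 22.8 in LPS-primed and 133 ± 34.1 in LPS-tolerant BMDMs. Dusp3 held the largest share in unstimulated BMDMs, 43.1% ± 8.67. Dusp1 held 20.3% ± 4.78 there, 56.4% ± 5.66 in LPS-stimulated, 60.3% ± 1.88 in LPS-primed and 37.0% ± 1.71 in LPS-tolerant BMDMs. Dusp2 made up 27.8% ± 3.54 of the sum in LPS-stimulated BMDMs and at most 1.68% in any sample of the other groups. In LPS-tolerant BMDMs, Dusp6 held 23.4% ± 4.47 and Dusp4 17.7% ± 4.0, against 0.302% ± 0.203 and 2.72% ± 0.977 in LPS-stimulated BMDMs. In unstimulated BMDMs these shares were 14.2% ± 3.28 and 14.3% ± 1.27, and in LPS-primed BMDMs 16.8% ± 3.44 and 4.81% ± 0.671. The sample ranges of LPS-tolerant and unstimulated BMDMs overlapped for Dusp4 but not for Dusp6, and those of LPS-tolerant and LPS-primed BMDMs overlapped for Dusp6. No test was made on these shares, which describe mRNA and not enzyme.

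**Figure D3:**
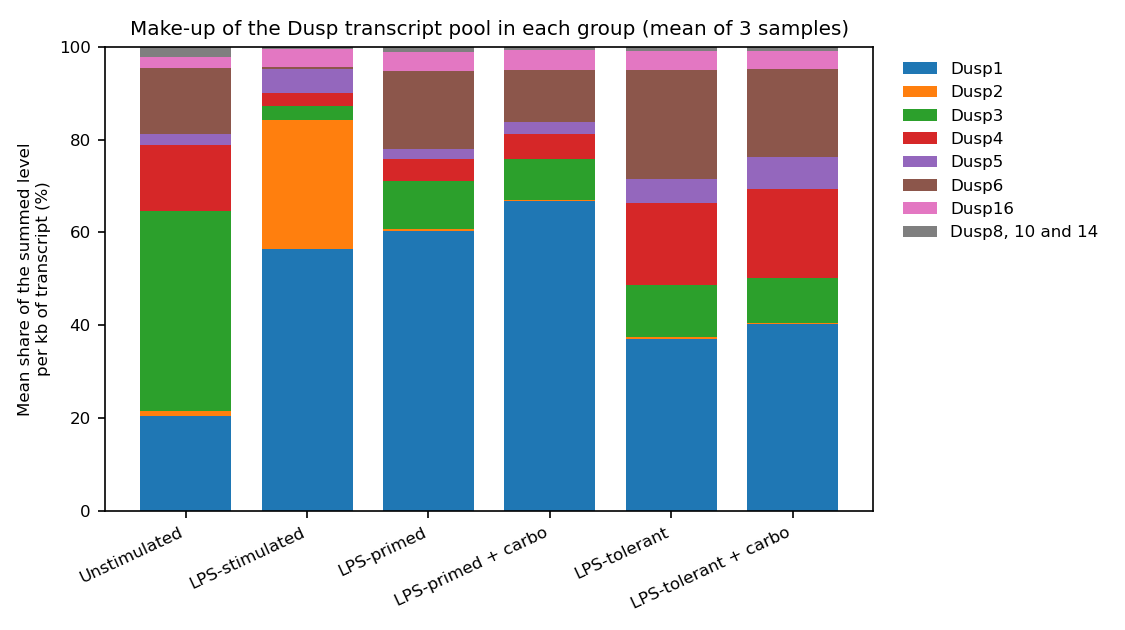
Mean share of each Dusp gene in the summed level per kilobase of transcript (vertical axis, percent, from 0 to 100) in the 6 groups, as the mean of 3 samples. Dusp3 leads in unstimulated BMDMs with 43.1%, and Dusp1 and Dusp2 make up most of the pool in LPS-stimulated BMDMs. Dusp4 and Dusp6 hold 17.7% and 23.4% in LPS-tolerant BMDMs, and 14.3% and 14.2% in unstimulated BMDMs.

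Carboplatin was compared within LPS-primed and within LPS-tolerant BMDMs, to see how the drug changed the transcripts. No member was called in LPS-primed BMDMs (0.372% of all genes were called) or in LPS-tolerant BMDMs (0.425%) by edgeR, nor by DESeq2. In the fit without a block, Dusp4 alone had an unadjusted p under 0.05 in LPS-primed BMDMs (6.86% of all genes). No member had one in LPS-tolerant BMDMs (6.73% of all genes). With the replicate block, Dusp1 (unadjusted p = 0.0041), Dusp16 (0.022), Dusp5 (0.041) and Dusp4 (0.042) were under 0.05 in LPS-primed BMDMs, and none was called. The share of all genes under 0.05 in that block fit was not counted. Dusp5 had a log2FC of 0.73 without the block (95% CI -0.74 to 2.21, adjusted p = 0.96) and of 0.82 with it. Dusp1 levels in LPS-primed BMDMs with carboplatin were 225, 153 and 136 CPM, higher than the same-numbered sample without it by 1.46 to 1.61 times in 3 of 3 pairs, and the ranges of both groups overlapped. The log2FC of Dusp1 was 0.61 (95% CI -0.03 to 1.25, adjusted p = 0.75), and with the replicate block 0.60 (95% CI 0.22 to 0.98, adjusted p = 0.11). Dusp4 levels there were 26.1, 12.3 and 19.1 CPM, a log2FC of 0.63 (95% CI 0.00 to 1.26, unadjusted p = 0.048, adjusted p = 0.72). Dusp16 levels were 28.7, 24.5 and 30.8 CPM and lay above all LPS-primed samples without drug, with a log2FC of 0.46 (95% CI -0.01 to 0.92, adjusted p = 0.73). Dusp3 also did not overlap, at 44.5, 46.3 and 45.3 CPM with drug, and had a log2FC of 0.20 (95% CI -0.09 to 0.48, adjusted p = 0.89). The share of all genes without overlap between these groups was not counted, so the separation of Dusp16 and Dusp3 is not read as a drug effect.

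In LPS-tolerant BMDMs, carboplatin left Dusp1 at 152, 109 and 94.1 CPM, Dusp4 at 65.6, 71.8 and 90.0 CPM and Dusp6 at 91.7, 47.3 and 101 CPM. Each of these overlapped with LPS-tolerant BMDMs without drug. The log2FC was 0.27 for Dusp1 (95% CI -0.37 to 0.92), 0.28 for Dusp4 (95% CI -0.31 to 0.87) and -0.18 for Dusp6 (95% CI -1.01 to 0.65). Dusp3 had the narrowest interval, -0.32 to 0.24, and Dusp8 the widest, -3.17 to 0.40. Dusp8 did not overlap, with 2 to 7 reads with drug and 8 to 15 reads without it, at a log2FC of -1.38 (adjusted p = 0.90). The share of all genes without overlap was not counted here either, and at so few reads this separation is not read as a drug effect. The difference between both carboplatin effects was called for none of the 11305 genes by edgeR (0% of all genes) or DESeq2, while 131 of them (1.16%) and no member had an unadjusted p under 0.05. For Dusp1 this difference was -0.34 (95% CI -1.25 to 0.57).

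Among the groups given carboplatin before priming, LPS-tolerant BMDMs again had higher Dusp4 than LPS-primed BMDMs. The log2FC was 1.99 (95% CI 1.37 to 2.61, adjusted p = 0.0011, edgeR), and Dusp4 was the one member called (1.98% of all genes, 1.29% higher). With the replicate block 3 were called, where that fit called 1040 of all 11305 genes. The others were Dusp5 at 1.45 (adjusted p = 0.011) and Dusp6 at 0.97 (adjusted p = 0.030). Without the block Dusp5 was at 1.56. It was then 0.73 without replicate 1 of LPS-tolerant BMDMs with carboplatin, or 2.16 without replicate 1 of LPS-primed BMDMs with carboplatin.

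**Figure D4:**
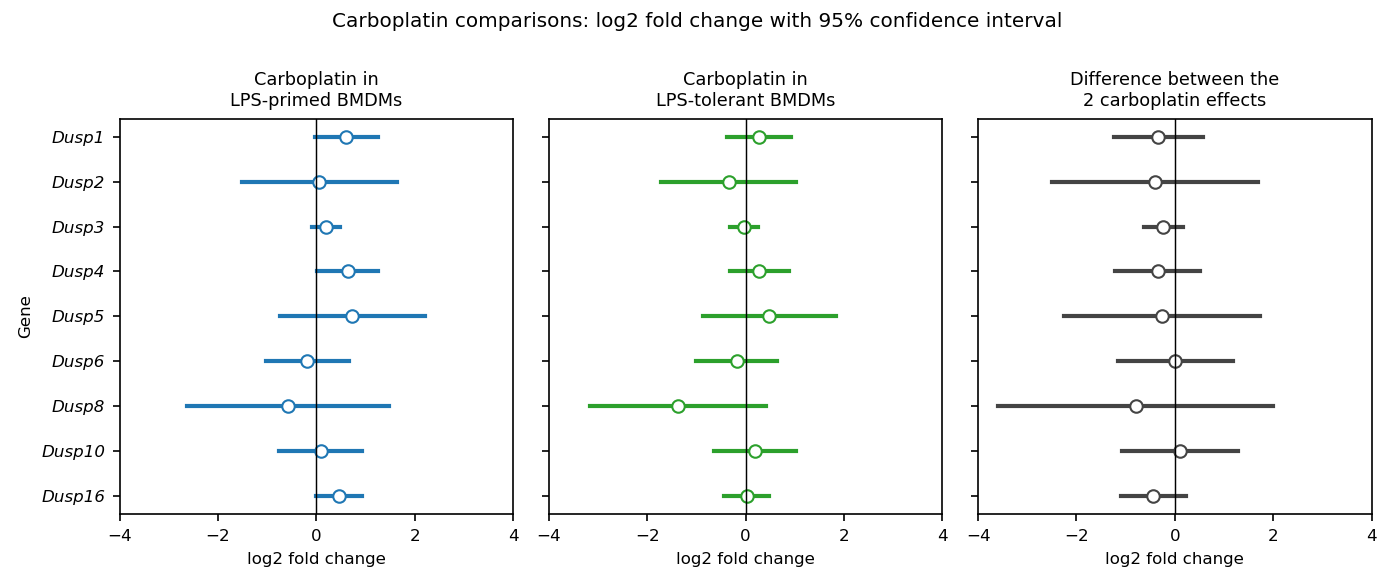
Log2 fold change (horizontal axis) of the 9 tested Dusp genes with carboplatin in LPS-primed BMDMs, in LPS-tolerant BMDMs, and the difference between both effects, with 95% confidence intervals as lines. All points are open because none passed an adjusted p of 0.05; Dusp1 lies at 0.61 in LPS-primed and at 0.27 in LPS-tolerant BMDMs.

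The order of the 6 groups by mean level differed between members. For Dusp1 it ran from LPS-stimulated (361 CPM) over LPS-primed with carboplatin (171), LPS-tolerant with carboplatin (118), LPS-primed (112) and LPS-tolerant (97.9) to unstimulated BMDMs (12.6 CPM), and only the first and the last step had no overlap between neighbours. For Dusp16 the order began with LPS-stimulated BMDMs (59.7 CPM) and ended with LPS-primed (20.4) and unstimulated BMDMs (3.69 CPM), the groups at 28.0 to 29.2 CPM between them overlapping. For Dusp4 both LPS-tolerant groups led, at 75.8 CPM with and 62.5 CPM without carboplatin, and the neighbours of the other 4 groups overlapped. For Dusp6 they led as well, at 90.9 CPM without and 80.1 CPM with carboplatin, and LPS-stimulated BMDMs were last at 2.50 CPM, apart from unstimulated BMDMs at 12.4 CPM. For Dusp5 all neighbouring groups overlapped, from 41.1 CPM in LPS-stimulated to 1.80 CPM in unstimulated BMDMs.

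Across the 18 samples, log2 CPM of Dusp1 and Dusp16 had a Pearson r of 0.94, the highest of the 36 pairs of tested members, and Dusp2 and Dusp6 had the lowest, -0.80. These values describe samples that share their group and number. Among other expressed genes, those most like Dusp1 over the 18 samples were Nfkbie (r = 0.97), which encodes an inhibitor of NF-kB, and Cdc42ep2 (r = 0.97). Pde4b, a cyclic AMP phosphodiesterase gene, was most like Dusp16 (r = 0.98), followed by Orai2 (r = 0.98). Jun, which encodes an AP-1 subunit, was most like Dusp6 (r = 0.97), followed by Dip2a (r = 0.96). Dusp4 was most like Sqle (r = 0.91), which encodes a sterol synthesis enzyme, and St3gal5 (r = 0.90). For Dusp2 the genes were St6galnac4 and Mul1 (both r = 0.97), for Dusp5 Cct3 and Rrp7a (both r = 0.96), and for Dusp3 Pcyt2 (r = 0.91). Dusp8 and Dusp10, with few reads, reached r = 0.70 with Ahcy and r = 0.69 with Sem1.

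Other genes of the pathway were counted from written lists. Of 42 MAPK cascade kinases, 40 were tested, and 30 were called after the single dose, 16 higher and 14 lower, where 51.2% of all genes were called. Map3k8, the kinase that links the LPS receptor to ERK, rose from 22.6 ± 5.16 to 160 ± 4.74 CPM (log2FC 2.83, adjusted p = 4.5e-07) and was at 21.1 ± 5.70 CPM in LPS-tolerant BMDMs. Mknk2, a kinase downstream of ERK and p38, fell by 2.94 on the log2 scale, and Mapk6 rose by 2.72. LPS-tolerant and LPS-stimulated BMDMs differed in 19 kinases, 8 higher and 11 lower (34.5% of all genes), among them Map3k8 at -2.92, Map2k6, a p38 kinase, at 2.55 and Rps6ka5 at -2.35. The median of the list was 0.33 after the single dose and 0.01 for LPS-tolerant against LPS-stimulated BMDMs.

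Of 19 other phosphatases that act on MAPKs or belong to related families, Dusp7 and Dusp9 among them, 14 were tested. After the single dose 3 were higher and 4 lower (51.2% of all genes were called), with a median of -0.20, the largest changes being in Dusp18 (-2.69), Ppm1d (-1.28) and Ppp2ca (1.19). Against LPS-stimulated BMDMs, LPS-tolerant BMDMs had 2 higher and 2 lower (34.5% of all genes), with a median of -0.04, the largest being Dusp22 (-2.40), Dusp23 (2.25) and Ptpn7 (1.37).

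Of 15 feedback regulators of ERK signalling, 13 were tested. After the single dose 6 were higher and 2 lower (51.2% of all genes were called), with a median of 1.17, which was the same with the gene Spry3 set to its bound of 3 counts per library. Errfi1, which encodes an inhibitor of the EGF receptor, rose from 5.42 ± 1.17 to 1370 ± 447 CPM (log2FC 7.97, adjusted p = 1.9e-10) and was at 27.7 ± 13.9 CPM in LPS-tolerant BMDMs, a log2FC of -5.64 against LPS-stimulated BMDMs. Spry3, of the Sprouty family of receptor signalling inhibitors, had 9 to 17 reads in unstimulated samples and was at 0 in the LPS-stimulated ones. Il17rd, an inhibitor of fibroblast growth factor signalling, had 18 to 58 reads in LPS-stimulated samples, 0 to 5 in unstimulated and 0 to 5 in LPS-tolerant samples. Between LPS-tolerant and LPS-stimulated BMDMs 3 were higher and 3 lower (34.5% of all genes), with a median of 0.17.

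Of 26 genes known to respond to MAPK signals, 23 were tested, and 16 were higher and 3 lower after the single dose (24.3% and 26.9% of all genes), with a median log2FC of 3.45. Ptgs2, the gene of the inducible cyclooxygenase, had a log2FC of 10.74 and the cytokine gene Il10 one of 7.20. Fosl1, an AP-1 subunit gene, went from 0 to 5 reads to 221 to 267 reads per sample. LPS-tolerant BMDMs had 5 higher and 11 lower than LPS-stimulated BMDMs (16.2% and 18.3% of all genes), with a median of -0.74. Il10 was at -7.13 and Egr2, an early response transcription factor gene, at -5.04, while Etv1, an ETS family gene, was at 4.34. Some of these lists were known to hold genes with large changes in these data, so their counts are descriptions only.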

How the data were processed

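Counts per gene of 18 BMDM samples were used, 3 in each of 6 groups taken from the labels. The authors sequenced stranded mRNA libraries as paired reads of 150 bases, aligned them to GRCm39 with HISAT2 and counted reads on genes by HTSeq-count. What they deposited are raw counts. Annotation, strand option and the versions of HISAT2 and HTSeq-count are not given in the sources used here. Rows naming no gene (41.5% to 46.9% of each file's total) were left out. All samples entered a fit in edgeR 4.0.16 (R 4.3.3) with a mean for each group, TMM scaling and the filterByExpr filter (minimum count 10, total 15). Groups were compared by the quasi-likelihood F test with Benjamini-Hochberg adjustment over 11305 genes, and genes were called at an adjusted p under 0.05 without a fold limit. Standard errors were computed as |log2FC|/√F. The fit was run on simulated counts of independent samples with the same dispersion for every gene, for LPS-tolerant against LPS-stimulated BMDMs only. Same-numbered samples were not correlated in that simulation, so how the calls without a block fare under such correlation was not tested. Nothing in the labels ties replicate numbers to mice, and no pair of libraries held identical values. The p-values measure the spread between these samples.

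Same-numbered samples were paired in the block fits because, in each of 7 comparisons of 2 groups, all 3 correlations of their deviations from the group means were above 0.1 (means 0.28 to 0.51). Alternatives were RLE or library size scaling, no filter, DESeq2 1.42.0, only the groups compared, the replicate block, the study's limits and leaving out each sample. All 10 Dusp genes are described. From each pathway list, the 3 called genes with the largest absolute log2FC after the single dose and between LPS-tolerant and LPS-stimulated BMDMs are named, and for each tested Dusp gene up to 2 genes with the highest Pearson r over the 18 samples (mean log2 CPM at least 3), 1 of which is not reported here. The members and lists were chosen with earlier results of these data known. Sequences came from the RefSeq promoter table and were matched to GRCm39.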

Additional observations from a re-analysis of the deposited data

Results flagged for a closer look

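For 6 members, the difference between the response to LPS at 10 ng/ml in primed and in naive cells was itself past the threshold (edgeR quasi-likelihood test of the 4 groups). It was -7.05 for Dusp2, -5.03 for Dusp1 and -3.51 for Dusp16, and it was 3.30 for Dusp6, 1.39 for Dusp4 and 1.05 for Dusp3 on the log2 scale, where a positive value is a higher log2FC in primed than in naive cells. Over all genes 23.8% were called. The count of members includes Dusp2, which passed the expression filter mainly through the LPS-stimulated samples, and is a description only. Dusp4 lost its call without unstimulated replicate 2, without LPS-primed replicate 2 or without LPS-tolerant replicate 3. For Dusp6 and Dusp3 the log2FC was below 0 in naive and above 0 in primed cells. That of Dusp6 in primed cells was called only with the replicate block. The later LPS came with fresh medium in primed cells, and the part of the medium in these differences cannot be told apart.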

How the results depend on the processing

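Counts of called members were those given in the text with RLE scaling and with DESeq2. Under the other alternatives they were within 1.5 times of those in the text, apart from the following. For LPS-tolerant against LPS-primed BMDMs they were 4 with the replicate block, 1 with only the groups compared and 1 at |log2FC| > 2, and 1 to 2 in fits without a sample. For the same comparison with carboplatin in both groups they were 3 with the replicate block, 3 at an adjusted p under 0.25 and 0 at |log2FC| > 2. That limit also gave 2 members after priming and 2 for LPS-tolerant against LPS-stimulated BMDMs.

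Over all genes, the replicate block called 4367 after priming, 2034 for LPS-tolerant against LPS-primed BMDMs, 200 for carboplatin in LPS-primed and 200 in LPS-tolerant BMDMs, 1040 for LPS-tolerant against LPS-primed BMDMs with carboplatin and 4091 for the difference between the later and the first response. The limit of |log2FC| > 2 gave 845, 77, 11, 17, 30 and 905 in these comparisons, and 1352 after the single dose and 909 for LPS-tolerant against LPS-stimulated BMDMs. For LPS-tolerant against LPS-primed BMDMs without drug, DESeq2 gave 1127, only the groups compared 454, and fits without a sample 330 to 506. For carboplatin in LPS-primed BMDMs these were 121, 19 and 24 to 36, and 136 at an adjusted p under 0.25. For carboplatin in LPS-tolerant BMDMs they were 152, 6 and 18 to 36, and 187 at 0.25. For LPS-tolerant against LPS-primed BMDMs with carboplatin they were 516, 129 and 75 to 160, and 1117 at 0.25. The cause of these shifts was not tested.

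Of 594 log2FC values of single members in fits without a sample, 533 kept direction and call, 10 lost and 3 gained the call, and 48 that were called in neither fit changed sign. Of 473 under other alternatives, 452 kept both, 5 lost and 8 gained the call, and 8 called in neither fit changed sign. No called value changed sign. The replicate block changed no call of a member other than those of Dusp5 and Dusp6. Scaling by library size alone moved the median log2FC of all genes from -0.09 to -0.43 after the single dose and from -0.02 to -0.26 after priming. Without the expression filter, Dusp14 had an adjusted p of 0.0019 after the single dose, with 48 of 63 reads in 1 sample, and whether it holds without that sample was not tested. Depth limits Dusp8, Dusp10 and Dusp14 throughout, and Dusp2 outside LPS-stimulated BMDMs.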
